A study of Mus musculus with 15 samples.

Results

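The HES and HEY repressors are described here by 6 genes, Hes1, Hes5, Hes6, Hey1, Hey2 and Heyl, taken by symbol from the count tables, out of 26263 named genes. All 6 were among the 15261 genes with enough counts to be tested. HES and HEY proteins are basic helix-loop-helix repressors that bind DNA as dimers, and the HES proteins recruit Groucho/TLE corepressors. When a Notch receptor is cleaved after meeting its ligand, its intracellular domain joins the DNA-binding protein RBPJ and switches on Hes1, Hes5 and the HEY genes, whose products hold down proneural genes and keep neural progenitors undifferentiated. Hes6 is the odd member: its product antagonises HES1, and in the embryonic brain it is induced by proneural factors and marks cells entering neurogenesis.

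RNA was sequenced from neural stem and progenitor cells of the dorsal telencephalon, the precursor of the cerebral cortex, of mouse embryos at E12.5. The cells grew as free-floating neurospheres in medium with EGF and FGF, and the groups differed in the histone acetyltransferase gene Kat6b. WT_B6 (n = 3) were wild-type cells and KO_B6 (n = 4) Kat6b knockout (Kat6b-/-) cells, all of C57BL/6 background. WT_FvB (n = 2) were wild-type cells and Tg_FvB (n = 6) cells with a Kat6b transgene, Tg(Kat6b), all of a mixed FVB and BALB/c background. The mixed background was used because the transgenic mice did not survive on an inbred one. The design therefore asks what the loss and the excess of Kat6b change, each against wild-type cells of its own background. Neither the knockout allele nor the promoter of the transgene is described in the sources used here. The titles of the Tg_FvB samples speak of knockouts, and for Tg_FvB replicates 5 and 6 the heading inside the count table names a wild type, so the genotype field was followed throughout. WT_B6 replicate 1 carries the same litter and embryo numbers as WT_FvB replicate 2.

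Total counts ran from 18483747 to 31067022 in WT_B6, 39413502 to 62819028 in KO_B6, 19930942 to 21417513 in WT_FvB and 12336303 to 41746720 in Tg_FvB. Each knockout library was thus deeper than each WT_B6 library. Kat6b itself stood at 83.5 to 85.1 CPM (counts scaled to library size) in WT_B6, 60.9 to 66.0 in KO_B6, 51.8 to 54.4 in WT_FvB and 139.6 to 288.8 in Tg_FvB. The knockout libraries thus kept 0.752 times the wild-type level (log2 fold change -0.41 ± 0.17, edgeR adjusted p = 0.0571, not called), and which part of the gene the allele removes is not known here. Tg_FvB replicates 5 and 6 had 139.6 and 288.8 CPM, above every wild type, and the transgenic mean was 4.57 times that of WT_FvB on the fitted scale (edgeR adjusted p = 2.38e-04). On the first principal component of all tested genes these 2 libraries lay at 3.94 and 4.81, apart from the other FvB libraries at 33.8 and above. Several libraries were near-identical. The biological coefficient of variation was 0.0172 to 0.0359 between the 3 WT_B6 libraries, 0.0269 between KO_B6 replicates 2 and 3, 0.0315 between the WT_FvB libraries and 0.0340 to 0.0503 among Tg_FvB replicates 1 to 3, against 0.115 to 0.276 for all other pairs within a group. Within each group the labels give these libraries separate embryos. For WT_B6, for KO_B6 replicates 2 and 3 and for Tg_FvB replicate 3 against 1 and 2 they also give separate litters. Yet p-values that count near-identical libraries as independent may be too small, and the calls of the 6 genes are also given with these libraries summed. The stem cell markers Sox2 and Nes were plentiful, while the dorsal telencephalic marker Emx1 was at most 0.128 CPM. Hey1, Hey2, Heyl and Notch genes are also active in blood vessels. Of the endothelial markers, Cdh5 was at 0 in all WT_B6 and WT_FvB libraries and at most 0.0791 CPM elsewhere, and the sum of all 6 was 1.42 to 2.61 CPM. The sum of 5 mural cell markers, of the vessel wall, differed between groups, at 7.70 to 8.07 CPM in WT_B6, 9.37 to 16.6 in KO_B6, 20.5 to 20.6 in WT_FvB and 10.0 to 29.6 in Tg_FvB, most of it from Acta2 and Tagln, while Rgs5 and Kcnj8 averaged at most 0.144 CPM in any group.

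All positions are of build mm10. Hes1 lies at chr16:30064384-30067796 and Heyl at chr4:123233556-123249875, both on the plus strand, and Hey1 at chr3:8663359-8667256 on the minus strand (GENCODE M21). The DNA before the transcription start is shown for members with an entry among the RefSeq promoters of GRCm38.p6, the assembly of mm10. Of the 6 genes, 3 had an entry: Hes5 and Hey2, which were lower in the knockout, and Hes6, which was higher. Hes1, Hey1 and Heyl had none, so the matches cannot be set against the direction of change. Capitals mark each match to GTGGGAA or its reverse complement TTCCCAC, the core of the site that RBPJ recognises. Hes5 lies at chr4:154960923-154962371 on the plus strand, and its window is chr4:154960673-154960922. RefSeq lets the gene begin 297 bases farther upstream, at 154960626, so this window may be transcribed in a longer form, and distances below are from the start of the printed window's entry. Hey2 lies at chr10:30832359-30842801 on the minus strand, and its window is chr10:30842802-30843033, from which the 18 bases nearest the RefSeq start at 30842783, annotated as transcribed by GENCODE, were left out. Hes6 lies at chr1:91411483-91414038 on the minus strand, and the window before the downstream of its 2 listed starts is chr1:91413223-91413472, inside the annotated gene.
Hes5: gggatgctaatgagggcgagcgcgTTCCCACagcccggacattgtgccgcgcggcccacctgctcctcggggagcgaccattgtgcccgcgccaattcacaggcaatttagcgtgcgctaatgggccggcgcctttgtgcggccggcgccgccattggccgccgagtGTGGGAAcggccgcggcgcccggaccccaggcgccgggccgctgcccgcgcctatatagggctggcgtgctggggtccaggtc
Hey2: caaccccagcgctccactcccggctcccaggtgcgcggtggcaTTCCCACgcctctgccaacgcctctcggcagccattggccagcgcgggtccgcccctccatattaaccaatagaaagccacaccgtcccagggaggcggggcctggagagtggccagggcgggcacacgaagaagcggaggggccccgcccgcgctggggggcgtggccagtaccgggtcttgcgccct
Hes6: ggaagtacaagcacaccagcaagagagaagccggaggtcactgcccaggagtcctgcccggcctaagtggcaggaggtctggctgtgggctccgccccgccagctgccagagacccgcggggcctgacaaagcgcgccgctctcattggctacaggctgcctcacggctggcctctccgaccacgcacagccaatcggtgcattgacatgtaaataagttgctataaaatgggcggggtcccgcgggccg

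Hes5 held 2 matches, 1 in each orientation, with 136 bases between them. The nearer began 83 bases before the start and the farther 226 bases before it. Hey2 held 1 match, which began 207 bases before its start, and neither listed Hes6 start had a match in the 250 bases before it. Of 32851 mouse promoter windows of 250 bases, 5.42% held at least 1 match on either strand, 0.161% held 2 or more, and 0.0548% held matches on both strands. The N-box CACNAG, a sequence bound by HES proteins, had 1 match before the downstream Hes6 start, none before the other Hes6 start and none before those of Hes5 and Hey2, against 36.7% of all windows with at least 1 on either strand. No match of one motif overlapped a match of the other. These letters were not found elsewhere in the windows, which says nothing of sites outside them.

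Per length, Hes5 was the leading member in all WT_B6 libraries and Hes6 in both WT_FvB libraries, and in the other 2 groups the lead changed between libraries. In RPKM (CPM per kilobase of gene length), WT_B6 had 235.1 ± 13.9 for Hes5 (SD, n = 3), 52.9 ± 0.802 for Hes6, 28.1 ± 0.983 for Hey1, 23.0 ± 0.899 for Hes1, 1.30 ± 0.132 for Hey2 and 0.540 ± 0.0447 for Heyl. No neighbours in that order overlapped. In WT_FvB the order was Hes6 at 115.0 ± 4.53 (n = 2), Hes5 at 45.1 ± 3.89, Hes1 at 38.8 ± 0.788, Hey1 at 22.9 ± 0.0530, Hey2 at 2.08 ± 0.246 and Heyl at 0.0724 ± 0.0256, again without overlap of neighbours. In KO_B6, Hes5 at 74.4 ± 15.9 (n = 4) and Hes6 at 65.2 ± 4.88 overlapped, and Hes1 at 36.1 ± 5.07 had moved above Hey1 at 15.1 ± 3.26. In Tg_FvB, Hes6 at 87.3 ± 6.64 (n = 6) and Hes5 at 75.2 ± 39.5 overlapped, as did Hes5 and Hes1 at 37.5 ± 5.54, while Hes1 lay above Hey1 in every library. The ratio of Hes5 to Hes6 was 0.925 and 0.941 in KO_B6 replicates 2 and 3 and 1.62 and 1.13 in replicates 1 and 4. It was 1.78 and 1.25 in Tg_FvB replicates 5 and 6 and 0.667 or less in the others. Hey2 and Heyl were the scarcest 2 in all 4 groups. The 6 genes summed to 340.9 ± 14.9 RPKM in WT_B6, 191.5 ± 20.7 in KO_B6, 223.9 ± 7.37 in WT_FvB and 223.7 ± 34.7 in Tg_FvB.

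Hes5 made up most of that sum in WT_B6, and the share held by Hes1 and Hes6 was larger in every other group. Hes5 held 68.1% to 70.1% of the summed RPKM in WT_B6, 35.5% to 44.0% in KO_B6, 19.4% to 20.9% in WT_FvB and 18.8% to 51.3% in Tg_FvB. Hes1 held 6.52% to 7.04% in WT_B6, 17.8% to 19.5% in KO_B6, 16.7% to 18.0% in WT_FvB and 10.1% to 19.9% in Tg_FvB. The mean share of Hey1 varied less, from 7.84% in KO_B6 to 10.2% in WT_FvB. The ratio of Hes5 to Hes1, in RPKM, was 10.2 ± 0.502 in WT_B6, 2.05 ± 0.213 in KO_B6, 1.16 ± 0.124 in WT_FvB and 2.13 ± 1.51 in Tg_FvB.

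**Figure D1:**
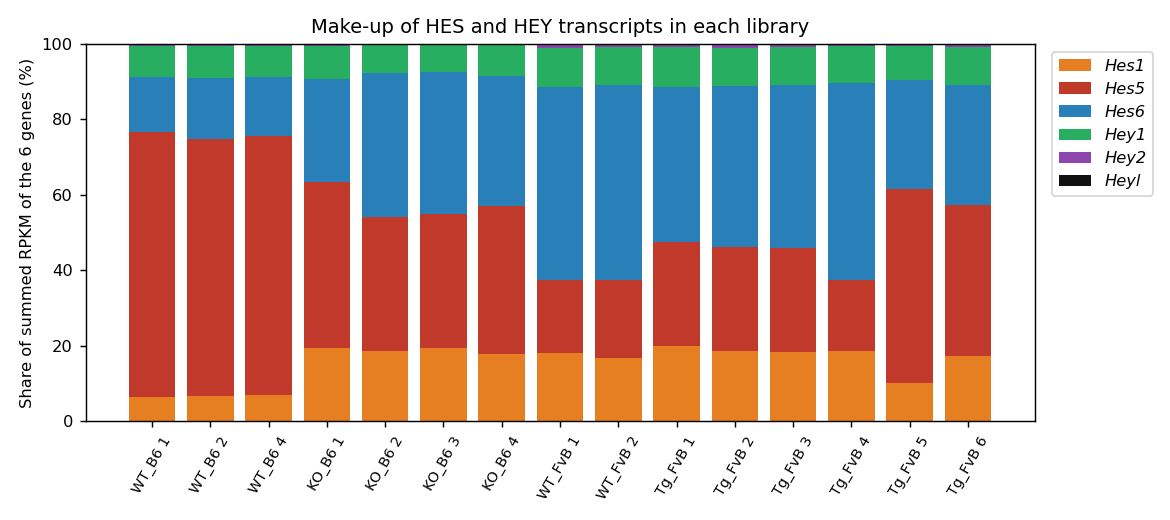
Each bar is 1 library, and its colours give the share (%) of the summed RPKM of the 6 genes that each gene held. Hes5 fills 68.1% or more of the 3 WT_B6 bars and 51.3% or less of all others, with Tg_FvB replicate 5 the highest of these.

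Loss of Kat6b went with a split in the family: Hes5, Hey1, Hey2 and Heyl were lower and Hes1 and Hes6 higher in the knockout. All 6 were called at an edgeR adjusted p under 0.05, 4 lower and 2 higher. In that comparison 45.8% of all tested genes were called, 24.8% higher and 20.9% lower, so that a call alone sets a gene little apart. The median log2 fold change was -1.04 over the 6 members and 0.02 over all tested genes. The 2 groups did not overlap for any of the 6, against 56.3% of all tested genes whose groups did not overlap. With near-identical libraries summed, the wild types form 1 profile, assumed to vary like the other groups, and none of the 6 was called. The log2 fold changes then ran from -2.29 for Heyl to 0.68 for Hes1. All 6 kept their direction, but the same counts entered both fits, so this is no separate support.

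Hes5, the classical Notch target of cortical progenitors, had 319.3, 285.6 and 293.0 CPM in WT_B6. In KO_B6 it had 124.6, 82.9, 81.8 and 89.3 CPM in replicates 1 to 4. Every knockout library lay far below every wild type, replicate 1 being the highest of the 4. The log2 fold change was -1.66 ± 0.33 (SE), or 0.316-fold, with an edgeR adjusted p of 0.00100. Its 5′ part overlaps the antisense transcript Gm20421 (chr4:154960770-154961678, minus strand, GENCODE M21), and the strandedness of the counting is not given in the sources used here, so reads of both cannot be told apart.

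Hes1, the HES gene that also responds to inputs other than Notch, went the opposite way. It had 33.9, 31.8 and 34.3 CPM in WT_B6 and 63.0, 49.5, 51.2 and 46.1 CPM in KO_B6 replicates 1 to 4. All knockout libraries were higher than all wild types, and replicate 1 was again the highest. The log2 fold change was 0.65 ± 0.13 (edgeR adjusted p = 9.08e-04). Hes6, the antagonist, rose less, from 70.1, 71.9 and 70.1 CPM to 80.4, 94.0, 91.2 and 82.7 CPM. Its log2 fold change was 0.30 ± 0.07 (edgeR adjusted p = 0.00375), the smallest of the 6 in size.

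The 3 HEY genes, which encode partners and relatives of the HES proteins, were all lower. Hey1 had 64.3, 61.3 and 60.1 CPM in WT_B6 and 43.8, 29.5, 27.9 and 32.1 CPM in KO_B6. Its log2 fold change was -0.89 ± 0.13 (edgeR adjusted p = 1.11e-04). Hey2 was scarce, with 3.60, 2.93 and 3.32 CPM against 2.12, 1.15, 1.31 and 1.18 CPM, from 53 to 103 counts per library. It fell by 1.20 ± 0.24 on the log2 scale (edgeR adjusted p = 0.00105). Heyl was scarcer, with 49 to 74 counts in the WT_B6 libraries and 9 to 28 in the deeper KO_B6 libraries. That came to 2.67, 2.28 and 2.38 CPM against 0.707, 0.461, 0.222 and 0.448 CPM, the largest fall of the 6 (log2 fold change -2.40 ± 0.40, edgeR adjusted p = 2.72e-04). For Hes5, Hey1, Hey2 and Heyl, KO_B6 replicate 1 was the knockout library nearest to the wild types.

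**Figure D2:**
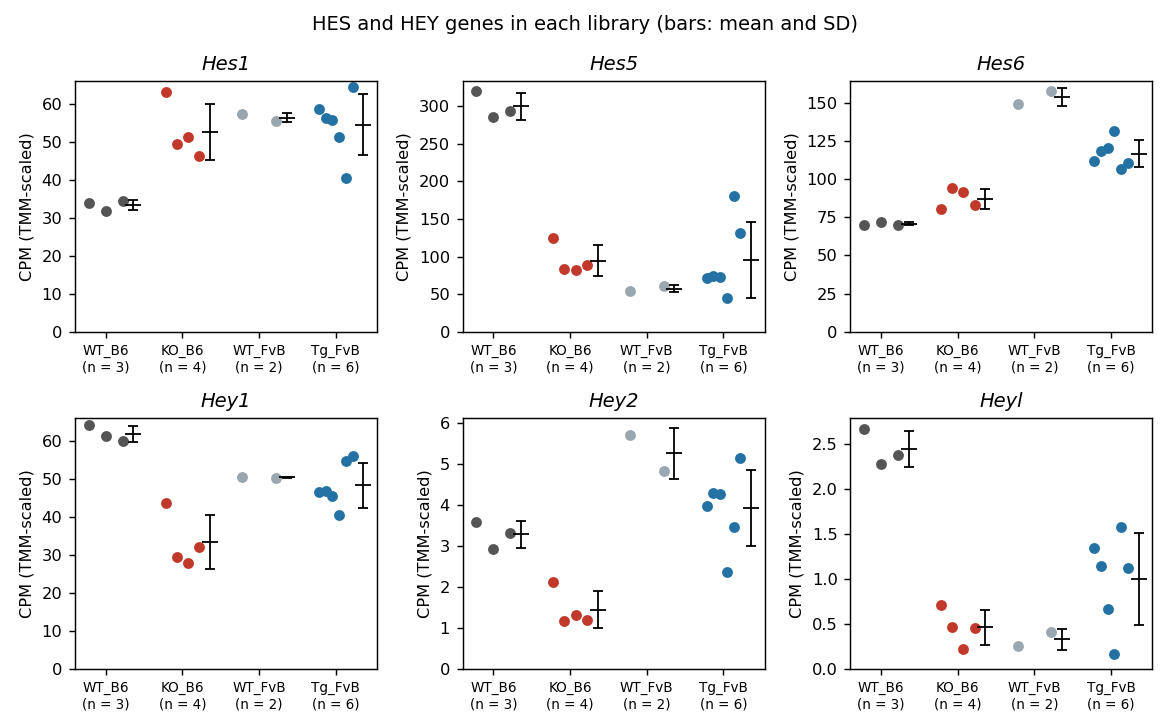
Points give TMM-scaled CPM (linear axes from 0) of each gene in each library, in order of replicate number, with the mean and SD of each group beside them. Knockout points lie wholly below WT_B6 for Hes5, Hey1, Hey2 and Heyl and wholly above it for Hes1 and Hes6, while the Tg_FvB points spread widely for Hes5 and Heyl.

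The knockout differences had the same direction in both litters that contain wild types and knockouts. These litters are no independent repeat, since the wild types of litters 843 and 929 (biological coefficient of variation 0.0172) and KO_B6 replicates 2 and 3 from the same 2 litters (0.0269) are near-identical. In litter 843 (1 wild type, KO_B6 replicates 1 and 2) the ratio of knockout to wild-type CPM was 0.363 for Hes5, 0.598 for Hey1, 0.558 for Hey2, 0.256 for Heyl, 1.77 for Hes1 and 1.21 for Hes6. In litter 929 (1 wild type, KO_B6 replicates 3 and 4) it was 0.292 for Hes5, 0.500 for Hey1, 0.375 for Hey2, 0.141 for Heyl, 1.42 for Hes1 and 1.24 for Hes6. With litter as a covariate all 6 were called in the same direction. Summed markers of other cell types moved with the knockout as well, though not each marker with its sum. The sum of 5 astrocyte markers was 1798 to 1865 CPM in WT_B6 and 356.6 to 594.7 in KO_B6, and all 5 were called lower. That of 5 neuronal markers was 88.9 to 90.6 and 39.5 to 58.2 CPM, with 2 called lower and 1 higher. Among the neuronal markers, mean Snap25 was 2.70 CPM in WT_B6 and 5.46 in KO_B6. None of these 10 was at 0. The sum of 5 oligodendrocyte lineage markers was 394.7 to 398.9 CPM in WT_B6 and 251.8 to 308.0 in KO_B6. Of these, 2 were called lower and 0 higher, while mean Pdgfra was 137.0 CPM in WT_B6 and 147.5 in KO_B6. The sum of 5 mural cell markers was higher in the knockout, at 7.70 to 8.07 and 9.37 to 16.6 CPM. Of the 3 tested, 1 was called higher and 0 lower, while mean Pdgfrb was 2.86 CPM in WT_B6 and 1.91 in KO_B6. The part of these 4 cell types in the HES and HEY differences was not tested. In such bulk samples fewer cells of a type and less RNA per cell cannot be told apart.

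**Figure D3:**
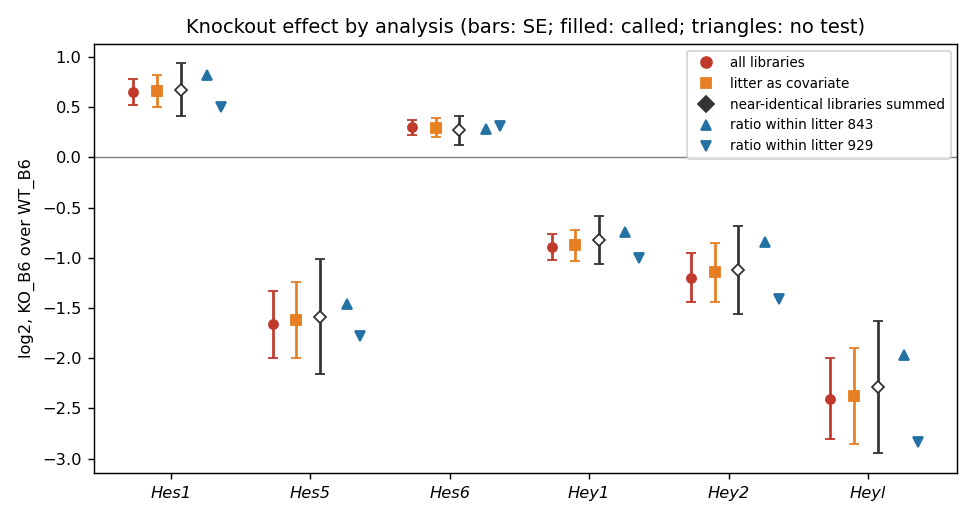
The log2 ratio of KO_B6 to WT_B6 is plotted for each gene as fitted with all libraries, with litter as a covariate and with near-identical libraries summed (bars are SE, filled points are called), and as the plain ratio within litters 843 and 929 (triangles, no test). The direction is the same in all 5 for each gene, and with near-identical libraries summed none is called.

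With the Kat6b transgene 1 of the 6 genes was called. Hes6 was lower, at 149.2 and 157.8 CPM in WT_FvB against a lowest of 106.6, a median of 115.3 and a highest of 131.2 CPM in Tg_FvB. All 6 transgenic libraries lay below both wild types. The log2 fold change was -0.40 ± 0.08 (edgeR adjusted p = 0.0243). Here 1.84% of all tested genes were called, 0.681% higher and 1.16% lower, and the groups did not overlap in 16.0% of them. Among the members the groups did not overlap for Hes6 alone. Within litter 844, which holds both wild types, Tg_FvB replicates 1 and 2 had 0.751 times the wild-type mean. Hes6 was not called with only the WT_FvB and Tg_FvB libraries in the fit (edgeR adjusted p = 0.129), with litter as a covariate (0.161), with near-identical libraries summed (1.00), or without WT_FvB replicate 1 (0.287), WT_FvB replicate 2 (0.348) or Tg_FvB replicate 1 (0.0545).

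Hes5 and Heyl varied most among the transgenic libraries and were not called. Hes5 had 53.9 and 60.9 CPM in WT_FvB and 71.3, 73.5, 72.9, 45.0, 180.4 and 131.3 CPM in Tg_FvB replicates 1 to 6. Replicates 5 and 6 were the highest and replicate 4, the shallowest library, was below both wild types. The log2 fold change was 0.74 ± 0.38 (95% interval -0.07 to 1.56, edgeR adjusted p = 0.313), and within litter 844 the ratio was 1.26. It rested largely on replicates 5 and 6, whose table headings name wild types: without both it was 0.19 and without replicate 5 it was 0.46. With litter as a covariate it was 0.33. Heyl had 5 and 9 counts in WT_FvB and 28, 41, 15, 2, 38 and 46 counts in Tg_FvB. In CPM that was 0.246 and 0.410 against a range of 0.158 to 1.58, with 5 of 6 transgenic libraries above both wild types. The log2 fold change was 1.65 ± 0.59 (edgeR adjusted p = 0.157). Without Tg_FvB replicate 4 it was called (1.81, adjusted p = 0.0208).

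Hes1, Hey1 and Hey2 overlapped between transgenic and wild-type cells. Hes1 had 57.2 and 55.5 CPM in WT_FvB against 40.6 to 64.3 in Tg_FvB with a median of 55.9 (log2 fold change -0.05, 95% interval -0.34 to 0.24, edgeR adjusted p = 0.883). Its lowest value was that of Tg_FvB replicate 5, which had the highest Hes5 and the lowest Kat6b of the transgenic libraries, at 139.6 CPM. Hey1 had 50.5 and 50.3 CPM against 40.4 to 56.0 with a median of 46.8 (log2 fold change -0.06, interval -0.36 to 0.25, edgeR adjusted p = 0.866). Hey2 had 5.71 and 4.83 CPM against 2.37 to 5.15 with a median of 4.13 (log2 fold change -0.40, interval -0.93 to 0.12, edgeR adjusted p = 0.400). The intervals of Hes1 and Hey1 did not reach the size of their knockout changes, which were 0.65 and -0.89. The sum of neuronal markers was 26.4 to 29.3 CPM in WT_FvB and 32.9 to 68.4 in Tg_FvB, with 1 of 5 called higher and 0 lower. That of astrocyte markers was 1600 to 1611 and 903.0 to 1695 CPM. The astrocyte sum was mostly Apoe, at 1068 and 1061 CPM, while 3 of the 5 markers were called lower: Gfap (158.4 to 35.3 CPM), Aqp4 (164.3 to 86.4) and S100b (24.0 to 14.9). The part of these cell types in the spread of Hes5 and Heyl was not tested.

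The knockout and transgene effects differed for 5 of the 6 genes, tested as the difference of the 2 log2 fold changes in the same model. The knockout was measured on C57BL/6 only and the transgene on the mixed background only. Loss against excess of Kat6b and background therefore cannot be told apart in this difference. In that test 37.3% of all tested genes were called, 19.6% higher and 17.8% lower. The knockout effect was lower than the transgene effect for Heyl (difference -4.05 ± 0.71, edgeR adjusted p = 8.19e-04), Hes5 (-2.40 ± 0.52, adjusted p = 0.00275) and Hey1 (-0.84 ± 0.20, adjusted p = 0.00497). It was higher for Hes6 (0.70 ± 0.11, adjusted p = 3.91e-04) and Hes1 (0.70 ± 0.19, adjusted p = 0.00906). Hey2 was not called (-0.80 ± 0.35, adjusted p = 0.0871). With litter as a covariate Hes1 was not called either (adjusted p = 0.0823), and with near-identical libraries summed none of the 6 was (adjusted p of 0.234 or higher).

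**Figure D4:**
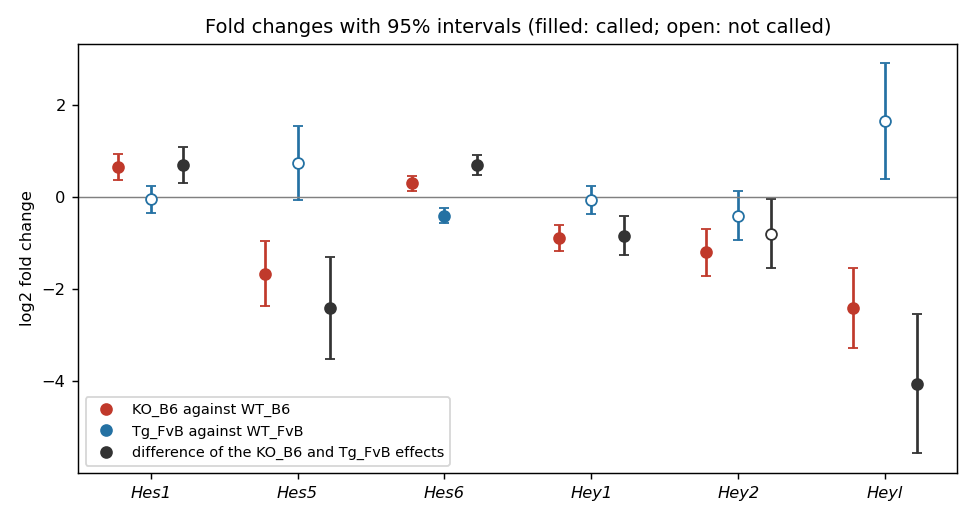
Points are log2 fold changes and bars 95% intervals for the knockout, for the transgene and for the difference of the 2 effects (filled points are called). The knockout and transgene points lie on opposite sides of 0 for Hes1, Hes5, Hes6 and Heyl, though of the transgene points the only one called is that of Hes6.

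The wild types of the 2 backgrounds differed from each other in 4 of the 6 genes. This comparison and that of the knockout share the WT_B6 libraries, so their values are only set side by side here. Strain and culture cannot be told apart between the wild types. Relative to WT_B6, WT_FvB was lower in Heyl (log2 fold change -2.87 ± 0.60, edgeR adjusted p = 0.00145) and Hes5 (-2.38 ± 0.44, adjusted p = 6.51e-04) and higher in Hes6 (1.12 ± 0.09, adjusted p = 1.57e-06) and Hes1 (0.76 ± 0.15, adjusted p = 0.00108). Hey2 (0.69 ± 0.28, adjusted p = 0.0543) and Hey1 (-0.29 ± 0.16, adjusted p = 0.146) were not called. Of all tested genes 48.9% were called in this comparison, 25.4% higher and 23.5% lower. The wild types did not overlap for any of the 6, nor for 78.3% of all tested genes. In mean CPM, Hes5 stood at 299.3 in WT_B6, 94.7 in KO_B6, 57.4 in WT_FvB and 95.7 in Tg_FvB, and Hes1 at 33.3, 52.5, 56.3 and 54.5. Hey1 and Hey2 were lowest in KO_B6, at 33.3 and 1.44 CPM, below both wild types (61.9 and 50.4 for Hey1, 3.28 and 5.27 for Hey2). With near-identical libraries summed each wild type is 1 profile and none of the 6 was called (adjusted p of 0.119 or higher).

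The other HES-related genes were scarce, apart from Bhlhe40 and Bhlhe41, repressors of the same structural class that respond to the clock and to low oxygen. Hes2, Hes3 and Hes7 averaged at most 0.440 CPM in any group, and Hes2 and Hes3, named here after their values were seen, were too low to be tested. Of the 4 tested genes of that list, Bhlhe40 rose (74.9 to 102.1 CPM, log2 fold change 0.45) and Hes7 fell (0.440 to 0.198 CPM) in the knockout. With the transgene Bhlhe41 (18.8 to 8.98 CPM, log2 fold change -1.08, edgeR adjusted p = 0.0220) and Bhlhe40 (189.7 to 122.7 CPM, -0.63, adjusted p = 0.0491) fell. Over all tested genes 45.8% were called in the knockout and 1.84% with the transgene.

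The counts of called pathway genes in the knockout are to be read against the 45.8% of all tested genes called there (24.8% higher, 20.9% lower). With near-identical libraries summed, 0 genes of the 9 pathway lists were called in the knockout (lowest edgeR adjusted p = 0.0750) and 0 with the transgene (1.00), so each pathway call given here is lost in that fit. Of 4 Notch receptor genes, 3 were called lower and 0 higher, with a median log2 fold change of -0.54. The 3 were Notch1 to Notch3, which encode cell-surface receptors. Notch1 fell from 385.1 ± 17.4 to 274.2 ± 29.9 CPM, Notch2 from 72.7 ± 2.57 to 48.5 ± 5.58 and Notch3 from 288.2 ± 15.2 to 157.5 ± 23.9. Of 8 ligand genes, Dll3 (148.8 to 73.9 CPM) and Dll1 (193.4 to 121.8 CPM) fell and Jag1 rose (18.3 to 46.4 CPM), with a median of 0.36. Of 25 genes that process, modify or sort the receptors 3 were higher and 7 lower (median -0.09), among them the glycosyltransferase gene Mfng (log2 fold change -1.28), the gamma-secretase subunit gene Aph1c (-1.01), the ubiquitin ligase gene Neurl1a (0.98) and Numbl (-0.93), a relative of the Notch inhibitor Numb. Of 10 genes of the nuclear complex 4 were lower and 0 higher (median -0.27). They were Cir1, a corepressor of RBPJ (-0.88), the coactivator gene Maml2 (-0.49), the demethylase gene Kdm5a (-0.48) and Spen (-0.33), while Rbpj itself, at 110.8 CPM in WT_B6 and 91.2 in KO_B6, missed the threshold (log2 fold change -0.28, edgeR adjusted p = 0.0578).

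Other genes under Notch, the corepressors and the genes that HES proteins hold down showed no single direction in the knockout. Of 7 further Notch targets 2 were higher and 3 lower. Cyclin D1 (Ccnd1, log2 fold change 1.56) and Myc (1.11) rose, and among the 3 that fell were the astrocyte filament gene Gfap (-2.43) and the glial factor Sox9 (-0.41). Of 12 corepressor genes 3 rose and 3 fell, with the Groucho gene Tle1 (-1.21) lower and Tle2 (0.78) and Tle6 (0.63) higher. Of 10 tested proneural genes and other genes under HES repression 1 rose and 3 fell. The proneural gene Neurog2 was scarce at 0.409 and 0.305 CPM. The cyclin-dependent kinase inhibitor genes Cdkn1c (-1.91) and Cdkn1b (-0.36) and the stress gene Gadd45g (-0.75) fell, and Neurod1 rose from 0.101 to 0.687 CPM. In the BMP and ID list, whose pathway also feeds Hes1 and Hey1, 2 of 16 were higher and 7 lower, including Id4 (-2.31), Smad6 (-1.69), Id2 (-1.26) and the rising ligand gene Bmp7 (0.94).

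With the transgene few pathway genes were called. None of 4 receptor, 8 ligand, 25 processing, 10 nuclear complex or 12 corepressor genes was called by edgeR. Over all tested genes 1.84% were called there, so the lack of calls sets these lists little apart. Notch1 stood at 224.5 ± 7.69 and 208.6 ± 43.9 CPM in WT_FvB and Tg_FvB, Notch2 at 63.8 ± 1.73 and 63.5 ± 5.50, Notch3 at 186.7 ± 3.40 and 198.2 ± 22.9, Dll1 at 93.4 ± 1.26 and 106.9 ± 24.2, Jag1 at 33.9 ± 0.990 and 37.1 ± 6.57 and Rbpj at 60.9 ± 5.01 and 66.3 ± 11.9. Gfap fell (158.4 to 35.3 CPM), and Bmp7 (31.7 to 53.0 CPM) and Neurod1 (0.0474 to 0.564 CPM) rose. Neurog2 (0.385 and 1.72 CPM) was not called (edgeR adjusted p = 0.168).

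**Figure D5:**
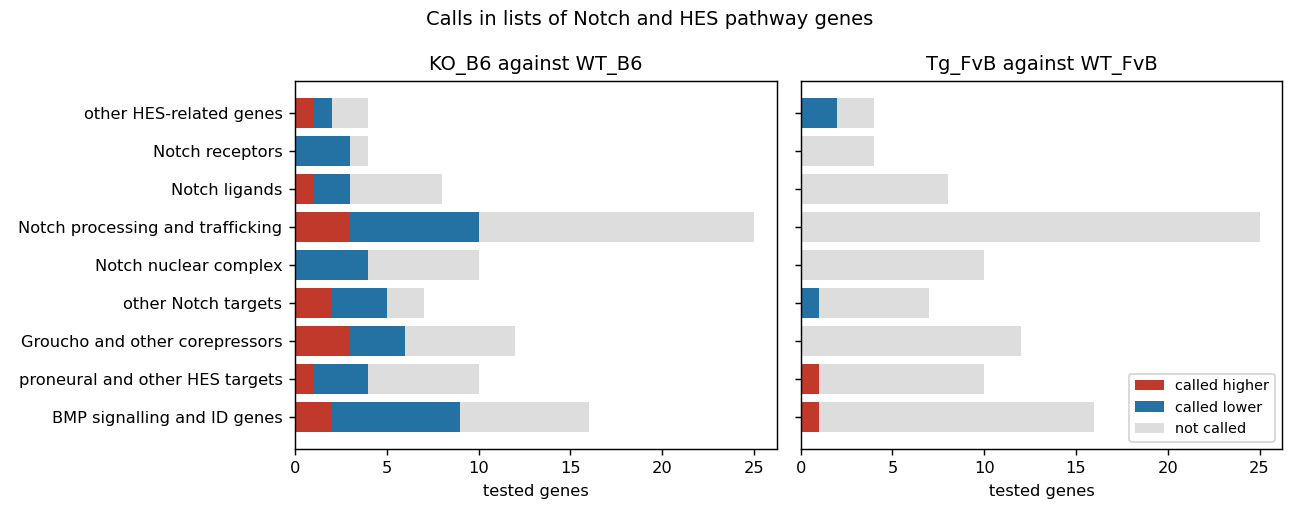
Bars count the tested genes of each pathway list that were called higher, called lower or not called, in the knockout (left) and with the transgene (right). Calls are spread over all lists in the knockout, where 45.8% of all tested genes were called, and few in number with the transgene, where 1.84% were.

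The relations among the members were not the same across and within the groups. Across the 15 libraries, the log2 CPM of Hes5 correlated with that of Heyl (r = 0.85), Hey1 (0.58), Hey2 (0.03), Hes1 (-0.77) and Hes6 (-0.81). After subtracting each group's mean, these were 0.75 for Heyl, 0.79 for Hey1, 0.51 for Hey2, -0.12 for Hes1 and -0.79 for Hes6. Heyl, Hey1 and Hes6 thus kept their sign and size, while Hey2 and Hes1 did not. Hes1 correlated with Hey2 at 0.14 across the libraries and 0.70 within groups, and with Kat6b at 0.28 and 0.77. Tg_FvB replicate 5, whose table heading names a wild type, had the lowest Kat6b (139.6 CPM) and the lowest Hes1 (40.6 CPM) of the transgenic libraries. Kat6b was 228.6 to 288.8 CPM in the others, and the correlation without replicate 5 was not computed. All these correlations are descriptions over 15 libraries, some near-identical, that share depth and culture. Among 10679 candidates averaging 5 CPM or more, those most like Hes5 in log2 CPM over the libraries were Apbb1 (r = 0.995), Pid1 (0.994) and Arvcf (0.993), a catenin gene that had 113.7, 41.0, 20.2 and 37.5 CPM in WT_B6, KO_B6, WT_FvB and Tg_FvB. Hes1 was most like Ranbp1 (0.97), which encodes a partner of the RAN GTPase, Ccnyl1 (0.97) and the survival gene Mcl1 (0.96). Hes6 was most like Vcpkmt (0.98), Sorbs2 (0.98) and Mipep (0.97). Hey1 was most like Mmd2 (0.98), Ndrg2 (0.98) and Tprkb (0.97), Hey2 like Nadk2 (0.98), the glial potassium channel gene Kcnj10 (0.96) and Abhd3 (0.95), and Heyl like Mycl (0.96), Kctd21 (0.96) and Lsamp (0.95).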

How the data were processed

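The deposited files hold raw counts per gene for 15 libraries. Per the submitters' processing notes the authors used bcl2fastq and featureCounts with build mm10. No version, aligner or counting option is named there or in the labels. Per the labels, reads were 66 bp paired-end. The gene length in bases, which the authors deposited beside the counts, was used for RPKM. In each file 917 entries without a gene name, 0.450% to 0.545% of counts, were left out. Counts were tested with edgeR 4.0.16 (R 4.3.3) by the quasi-likelihood F-test in 1 model of all 15 libraries with a coefficient per group, TMM scaling, no covariates, and filterByExpr at a minimum count of 10, which left 15261 genes. Calls are Benjamini-Hochberg adjusted p under 0.05 over all of these, and named p-values in the text are these unless stated. SEs come from the F statistic. Labels place libraries in separate embryos. Alternatives included RLE size factors and DESeq2 1.42.0, no filter, litter, replicate number, summed near-identical libraries and each library left out.

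The 6 members and the pathway lists were chosen with earlier results of these data known. Named were all members, Kat6b, Notch1, Notch2, Notch3, Dll1, Jag1, Rbpj, Neurog2, up to 4 called genes per list and comparison with the largest fold change, and the 3 most correlated genes per member. Some items under this rule are not reported here. The test was checked on simulated counts of 15261 genes. It recovered 76.1% of 2-fold changes (67 genes each) in the knockout comparison, 68.7% in the transgenic one and 59.7% between wild types. Of the calls 6.10%, 6.12% and 3.79% were false. Few genes were changed there and the libraries were drawn as independent, unlike the real ones, so these rates may not hold for the real tests.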

Additional observations from a re-analysis of the deposited data

Results flagged for a closer look

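Hey2 in KO_B6 replicate 1 lay far from the other 3 knockout libraries, at 2.12 CPM against 1.31 CPM for the nearest, a gap of 0.84 of the group's range. Chance alone gives such a gap in about 1 of 20 groups of independent values, and 1 of 12 groups of member values showed it. KO_B6 replicates 2 and 3 are near-identical, and the 12 groups come from the same libraries, so these rates cannot be compared.

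The knockout and transgene effects differed by a test of the difference itself for Hes1 (0.70), Hes5 (-2.40), Hes6 (0.70), Hey1 (-0.84) and Heyl (-4.05), as differences of log2 fold changes with edgeR adjusted p from 3.91e-04 to 0.00906. In that test 37.3% of all tested genes were called. Hes1 lost its call with litter as a covariate (edgeR adjusted p = 0.0823), and the calls did not hold with near-identical libraries summed. Genotype and background cannot be told apart in this difference.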

How the results depend on the processing

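Many alternatives left out a library outside the comparison or 1 of several near-identical ones, and could move a fold change little. Values not called in either fit count as kept, so the tally that follows does not measure how firm the calls are. Of 534 values of the 6 members under alternatives, 496 kept their direction and side of the threshold, 22 lost and 13 gained a call, and 3 turned. The 3 were Hes1 with the transgene, at 0.027 with litter as a covariate, 0.027 with the replicate block and, over single libraries left out, between -0.102 and 0.0153 (without Tg_FvB replicates 6 and 5). With near-identical libraries summed 0 members were called in each of the 4 comparisons, and 5 genes in all were called in the knockout and 0 in the other 3 (3433, 433, 2737 and 3606 at an unadjusted p under 0.05). In the transgenic comparison 0 members were called with litter as a covariate or only its 2 groups fitted (10 and 10 of all genes), and 2 with the replicate block (1577 of all genes), Heyl being added (adjusted p = 0.0226). There DESeq2 called 722 of all genes (356 higher, 366 lower) against 281 (104 higher, 177 lower) and the fit without Tg_FvB replicates 5 and 6 called 641. For the difference of effects 2862 of all genes were called with litter as a covariate and 5696 without. Leaving out 1 library at a time gave 0 to 2 members and 2 to 1764 genes with the transgene (2 without either WT_FvB library, 1764 without Tg_FvB replicate 4, 609 without replicate 5, 59 to 88 without replicate 1, 2 or 3, 124 to 137 without a WT_B6 library, 166 and 153 without KO_B6 replicate 2 or 3). For the difference it gave 3677 to 6761 genes, with 3677 and 3679 without WT_FvB replicate 1 or 2. The replicate block kept all 6 members called in the knockout (7815 of all genes) and added Hey2 to the difference (adjusted p = 0.0426). Same-numbered libraries showed little shared deviation (r from -0.0237 to 0.0809). The deviations of the 2 WT_FvB libraries mirror each other and the WT_B6 libraries are near-identical, so this cannot settle whether the numbers pair libraries. Between the wild types, Hey1 and Hey2 were called with only these 2 groups fitted (adjusted p = 8.86e-06 and 2.44e-04), and Hey2 with DESeq2 (0.0389). Neither litter nor replicate number was fitted between the wild types, since both were coded within each background. The labels do give litter 844 to WT_B6 replicate 1 as well as to both WT_FvB libraries. Heyl rests on 2 to 74 counts per library, which limits its precision.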
